A study of Homo sapiens with 16 samples.

Results

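The translation initiation factors were followed here as 41 genes that were listed by symbol in both expression tables, out of 23597 genes in the RNA table and 19201 genes in the ribosome footprint table. They were picked by symbol and not by a cut on any measured value, but with earlier results of these data known. They comprise 3 genes of the eIF1 group (EIF1, EIF1AX, EIF1B), the 3 subunits of eIF2, EIF2A, the 5 subunits of eIF2B, the 13 subunits of eIF3, 9 genes of the eIF4 group, the 4E-BPs EIF4EBP1 and EIF4EBP2, EIF5 and EIF5B, EIF5A and EIF5A2, and EIF6.

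Initiation factors bring the initiator tRNA, the messenger RNA and the ribosomal subunits together at a start codon. eIF2 carries the initiator methionyl-tRNA as a complex with GTP, and eIF2B recharges eIF2 with GTP after each round. Stress kinases phosphorylate the alpha subunit of eIF2, which then holds eIF2B in an inactive form. EIF4E binds the mRNA cap, EIF4G bridges it to the small subunit through eIF3, and the 4E-BPs compete with EIF4G for EIF4E. Heat shock is a classical setting in which both control points limit translation while heat shock mRNAs continue to be translated.

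The series measured RNA and ribosome footprints in WI-38, a lung fibroblast line of human origin with a finite life span in culture. The groups were senescent cells at passage 36 after heat shock, young cells at passage 24 after heat shock, senescent control cells at passage 36 and young control cells at passage 24. Heat shock lasted 2 h at 44 °C, as the temperature in the labels was read, and cells were lysed directly afterwards. Cells of all groups, controls included, had been starved of serum for a day and returned to full medium for another before the experiment. Each group had 2 libraries of each assay, and footprints are the mRNA fragments that ribosomes shield from nuclease. The labels call the cells senescent or young, with the passage number as the stated difference. The labels do not say whether the 2 libraries of a group came from separate cultures. The p-values set differences between groups against the pooled spread between such libraries, and that spread may be technical.

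Sequences at 2 places bear on how these mRNAs enter translation. The first is the 5′ end, where a C followed by an unbroken run of C or T is the hallmark of mRNAs with a terminal oligopyrimidine tract, the class that includes those of ribosomal proteins and elongation factors. In the RefSeq promoter table (GRCh38.p14), 34 of the 41 members matched an entry, all but EIF2S2, EIF3A, EIF3E, EIF3G, EIF3H, EIF3L and EIF4EBP1. A start opening with C and at least 4 more C or T on the transcribed strand was found at 8 of 47 member starts, 17%, and at 1429 of 35116 starts of all genes, 4.07%. The 8 members are shown as the first 24 bases of the transcript, with the opening run in capitals. A match describes these letters and is not evidence of a working tract.
EIF2S3: CTCTTTTggcaacatggcgggcgg
EIF2A: CTCTTTCCgggacaacatggcgcc
EIF3D: CTCTTTTCCTggtttctcaagagt
EIF3F: CTTCTTTCTCgacaagatggccac
EIF3K: CTCTTCCTgttcccgtccttgagg
EIF3M: CTTTTCCggtcggcgtggtcttgc
EIF4A2: CTTTTCagtcgggcgctgagtggt
EIF4B: CTTTTgcgttctctttccctctcc
The 24 bases shown lie at chrX:24054956-24054979 (plus strand) for EIF2S3, chr3:150546787-150546810 (plus) for EIF2A, chr22:36529143-36529166 (minus) for EIF3D, chr11:7987337-7987360 (plus) for EIF3F, chr19:38619188-38619211 (plus) for EIF3K, chr11:32583831-32583854 (plus) for EIF3M, chr3:186783577-186783600 (plus) for EIF4A2 and chr12:53006456-53006479 (plus) for EIF4B.

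The second place is the start codon, shown for the 3 members whose footprints changed in the results. It is in capitals, with 12 bases on each side, from the GENCODE v29 transcripts (GRCh38).
EIF5A: aagcctcttaaaATGgcagatgacttg
EIF4G2: caagccgccaaaGTGgagagtgcgatt
EIF4EBP2: gcgcccacagccATGtcctcgtcagcc
The start codons are at chr17:7309636-7309638 (plus strand) for EIF5A, chr11:10807293-10807295 (minus) for EIF4G2 and chr10:70404402-70404404 (plus) for EIF4EBP2. EIF4G2, which is known to start at a GUG codon, was the 1 member of 41 whose annotated start was not ATG. EIF4EBP2 has a short coding sequence of 360 bases, followed by a 3′ UTR of 6874 bases in the GENCODE transcript read. A purine at the third base before the start codon together with a G directly after it, the strong form of the context, was present in 16 of 39 members, 41%, and in 7904 of 18574 genes, 42.6%, counting those that start with ATG and have enough annotated leader to read it.

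Library totals were 26434514 to 37126871 counts for RNA and 4581141 to 9104077 counts for footprints. All 7 listed fibroblast markers were above 1 TPM (transcript level per length, scaled to a fixed total in each library) in every RNA library, with summed levels of 9293 to 14436 TPM. Endothelial markers summed to 0.10 to 0.35 TPM with 0 of 4 above 1 TPM and 1 of 4 at 0 in every library, epithelial markers to 133 to 224 TPM with 3 of 5 above 1 TPM, and blood cell markers to 104 to 178 TPM with 1 of 4 above 1 TPM. The part of cells of another type in the values below was not tested. The footprint libraries of the young control stood apart by their closeness: their counts differed by a chi-square of 1.73 per degree of freedom, against 17.2 to 38.7 in the other footprint groups and 67.5 to 105 in the RNA groups. That is more than sampling noise alone gives. It cannot show that they are separate samples, since repeat libraries of 1 sample can also differ by more than that noise. They were counted as 2 samples, and results that change when they are counted as 1 are given both ways.

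The initiation factors were abundant. In RNA 39 members and in footprints 40 members exceeded 10 TPM in every library. Their summed RNA was 8998 and 9000 TPM in senescent heat shock, 9875 and 9273 TPM in young heat shock, 10098 and 9211 TPM in senescent control and 10670 and 9743 TPM in young control. Their summed footprints were 12685 and 11500 TPM in senescent heat shock and 12491 and 10944 TPM in young heat shock, against 11255 and 10462 TPM in senescent control and 10817 and 10873 TPM in young control. In RNA both senescent heat-shocked libraries lay below both senescent controls and the young groups overlapped. TPM are shares of a library. On the scaled counts tested below, the median RNA change of the members under heat in senescent cells was 0.06 (log2). In footprints both heat-shocked groups lay above their controls, but without EIF5A and EIF5A2 the sums overlapped at both passages. EIF5A and EIF5A2 summed to 2730 and 2630 TPM in senescent heat shock, against 1764 and 1466 TPM in senescent control. In young cells they summed to 2351 and 1935 TPM in heat shock, against 1527 and 1561 TPM in control. The counts per TPM unit show that a different gene length stands behind footprint TPM than behind RNA TPM, so levels are compared between genes within an assay and never between the assays. In bulk samples a lower level cannot tell fewer cells of a kind from less RNA per cell.

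In RNA the helicase EIF4A1, which unwinds mRNA near the cap, averaged 1209 ± 63.5 TPM in senescent heat shock, 1364 ± 99.7 TPM in young heat shock, 1450 ± 143 TPM in senescent control and 1599 ± 251 TPM in young control (SD, n = 2 each). EIF5A, which helps ribosomes through stretches of proline, averaged 1201 ± 70.4, 1051 ± 38.8, 1199 ± 97.1 and 1183 ± 8.97 TPM in the same groups. In senescent heat shock these levels of EIF4A1 and EIF5A differed by less than their spread. EIF1, which guards start codon choice, and EIF4G2 followed in every group. EIF5A2, the second eIF5A gene, was lowest, at 3.59 ± 1.56 TPM in senescent heat shock, 3.67 ± 0.177 TPM in young heat shock, 7.54 ± 2.24 TPM in senescent control and 7.64 ± 1.11 TPM in young control. In footprints EIF5A was highest after heat shock, at 2654 ± 61.7 TPM in senescent cells and 2117 ± 293 TPM in young cells. In young control the order was EIF1 at 1705 ± 86.9, EIF4A1 at 1576 ± 20.3 and EIF5A at 1505 ± 19.4 TPM. In senescent control EIF4A1 at 1683 ± 218, EIF5A at 1565 ± 204 and EIF1 at 1543 ± 318 TPM lay within each other's spread.

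**Figure D1:**
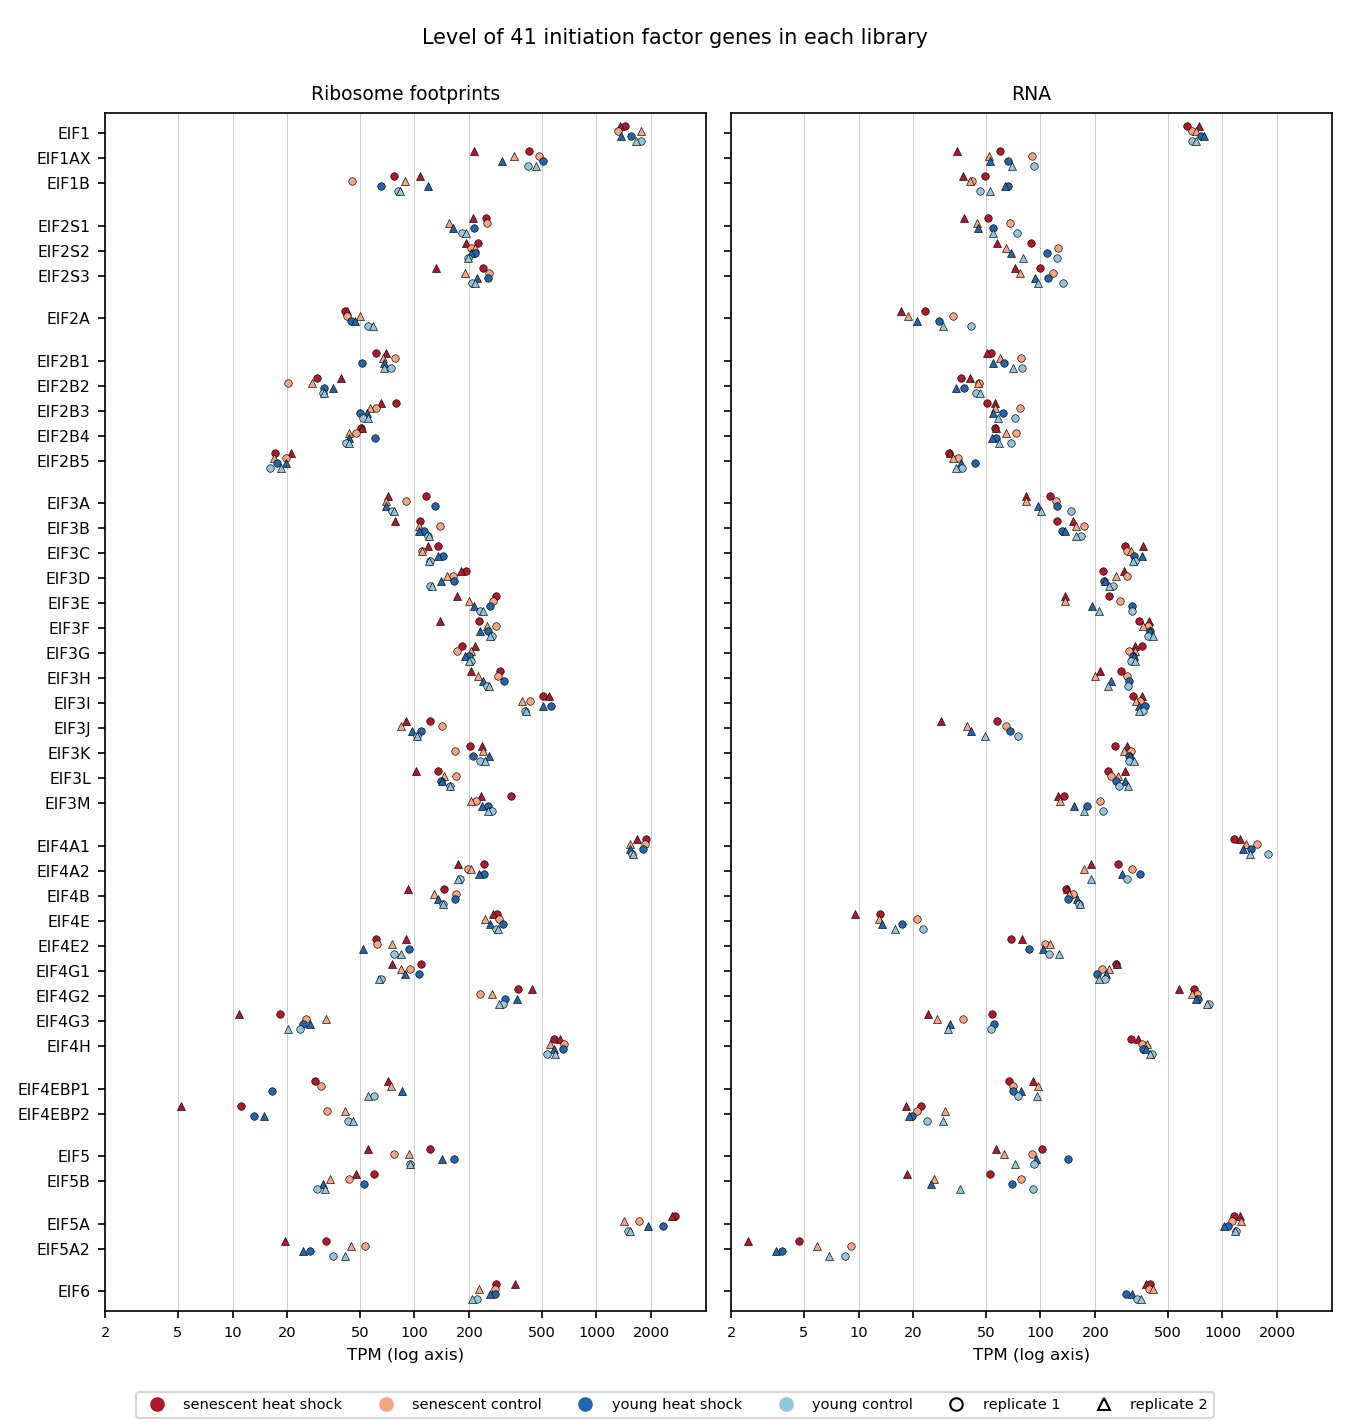
Level of each member in each library, in TPM on a log axis, for footprints (left) and RNA (right). Colours mark the 4 groups and shapes the 2 libraries of a group. EIF4A1, EIF5A and EIF1 lie at the right in both assays and EIF5A2 at the left of the RNA panel, at 2.48 to 9.12 TPM.

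Subunits of 1 complex were not equal in level. In RNA, EIF3J, a loosely held eIF3 subunit, was the lowest of the 13 in all 8 libraries, and the highest subunit exceeded it by 5.18 to 13.8 times. In footprints EIF3I, a scaffold subunit, was the highest of the 13 in all 8 libraries and exceeded the lowest by 4.78 to 7.63 times. The 3 subunits of eIF2 were close to each other in footprints, with the highest exceeding the lowest by 1.10 to 1.59 times. For eIF2B the span was 3.31 to 4.65 times, with the catalytic subunit EIF2B5 lowest in all 8 libraries. EIF3C footprints are uncertain, since the near-identical EIF3CL received 1186 to 2709 footprint counts per library, against 1581 to 3611 for EIF3C. For EIF5A the near-identical copy EIF5AL1 had 0 to 7 footprint counts, against 4290 to 12023 for EIF5A.

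The effect of heat on ribosome occupancy was tested in each passage with edgeR's quasi-likelihood test on the footprint counts, with Benjamini-Hochberg adjustment over all 11288 genes. In senescent cells the footprints of EIF5A and EIF4G2 rose and those of EIF4EBP2 fell, and the other 38 members did not pass an adjusted p of 0.05. That is 3 of 41 members, beside 8.35% of all genes tested (3.12% higher, 5.24% lower). In young cells 0 of 41 passed, beside 1.15% of all genes. At an unadjusted p under 0.05 there were 12 members in senescent cells, beside 28.7% of all genes, and 9 in young cells, beside 16% of all genes. DESeq2 called 5 members in senescent cells (13.2% of all genes) and 2 in young cells (4% of all genes), and edgeR with the replicate number as a block, which was not shown to pair the footprint libraries, called 7 (14.8% of all genes) and 1 (2.92%). The median log2 fold change of the members was 0.35 in senescent cells, against 0.03 over all genes, with 33 of 41 above 0, where 51.6% of all genes were above 0. In young cells it was 0.26, against -0.01 over all genes, with 36 of 41 above 0, where 49.4% of all genes were. Both heat-shocked libraries lay above both controls for 22 members in senescent cells, beside 26.8% of all genes, and for 26 members in young cells, beside 27.4%. Scaling to library size alone puts the median change of all genes under heat at -0.25 in senescent and -0.28 in young footprints on the log2 scale. The medians of the members were then 0.07 in senescent and -0.02 in young cells, and the members not overlapping upward 11 (13.3% of all genes) and 9 (12.3%).

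**Figure D2:**
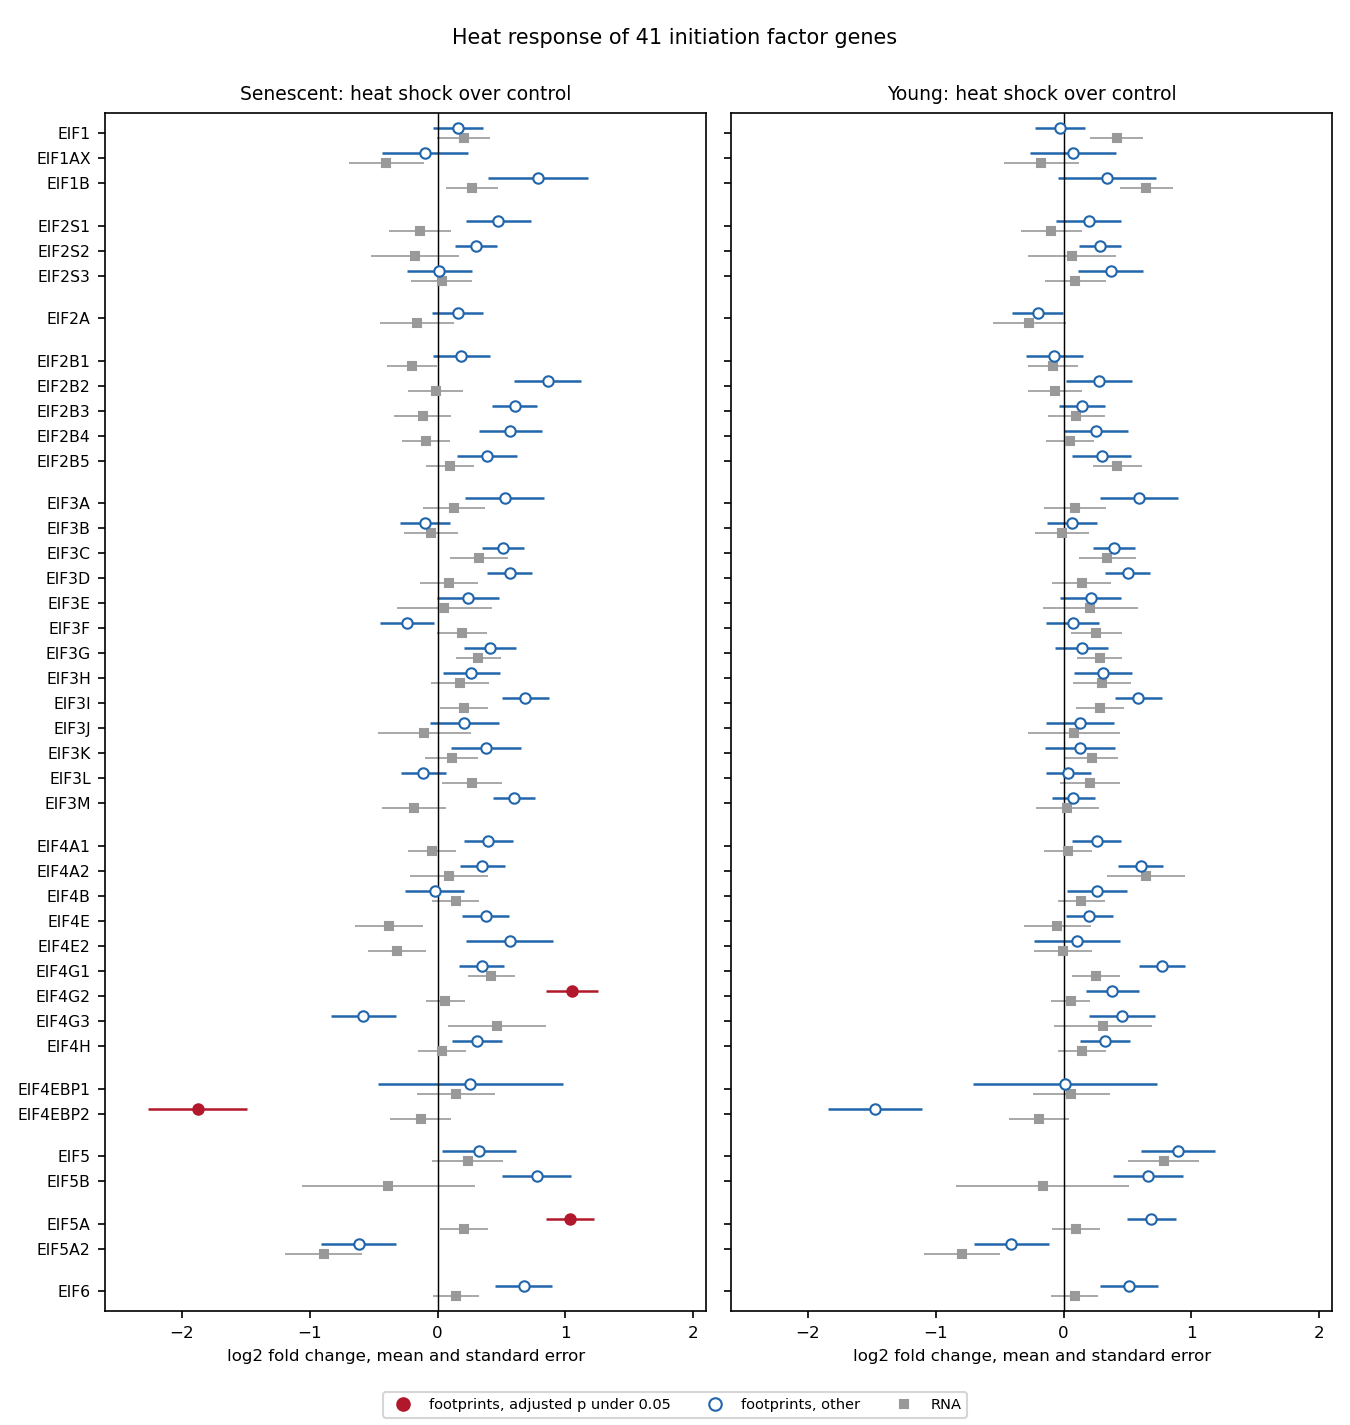
Heat response of each member in footprints (circles) and RNA (grey squares) as log2 fold change of heat shock over control with its standard error, senescent cells left and young cells right. The filled circles mark the footprint changes past an adjusted p of 0.05, EIF4G2 at 1.05, EIF5A at 1.04 and EIF4EBP2 at -1.88 in senescent cells, and most other circles lie right of 0.

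EIF5A carries the modified residue hypusine and acts in elongation and termination as well as in early peptide bond formation. Its footprints, as counts relative to the scaled library size (scaled CPM), were 1629 and 1717 in senescent heat shock, against 893 and 737 in senescent control. Both heat-shocked libraries lay above both controls and the log2 fold change was 1.04 ± 0.19 (SE, edgeR adjusted p = 0.0185). In young cells they were 1383 and 1089 in heat shock, against 762 and 775 in control, a log2 fold change of 0.69 ± 0.19 that did not pass (edgeR adjusted p = 0.138; DESeq2 adjusted p = 0.0404). Its RNA was 777 and 1006 scaled CPM in senescent heat shock, against 710 and 832 in senescent control, so that the RNA groups overlapped.

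EIF4G2 (DAP5) resembles the scaffold EIF4G1 but lacks the part that binds EIF4E, and takes part in initiation without the cap-binding factor. Its footprints were 1240 and 1716 scaled CPM in senescent heat shock, against 659 and 764 in senescent control, with a log2 fold change of 1.05 ± 0.20 (edgeR adjusted p = 0.0217). In young cells they were 1022 and 1162 in heat shock, against 860 and 816 in control, with 0.38 ± 0.20 (adjusted p = 0.402). The groups did not overlap at either passage. Its RNA hardly differed between libraries, at 1452 and 1416 scaled CPM in senescent heat shock, against 1382 and 1368 in senescent control, and 1508 and 1573 in young heat shock, against 1445 and 1520 in young control.

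EIF4EBP2 is a repressor that sequesters the cap-binding EIF4E. Its footprints were few, at 29 and 10 raw counts in senescent heat shock, against 49 and 75 in senescent control, which is 3.93 and 2.12 scaled CPM, against 10.2 and 12.7. The log2 fold change was -1.88 ± 0.39 (edgeR adjusted p = 0.0247). In young cells there were 4.58 and 5.00 scaled CPM in heat shock, against 13.0 and 13.8 in control, with -1.48 ± 0.37 (adjusted p = 0.102). All 4 heat-shocked libraries lay below all 4 controls. Its RNA overlapped between the groups, at 89.5 and 87.3 scaled CPM in senescent heat shock, against 78.1 and 116 in senescent control, and 79.3 and 81.5 in young heat shock, against 80.3 and 104 in young control.

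These calls rest on the pooled spread of 8 footprint libraries. With the young control libraries counted as 1 sample, adjusted p was 0.0602 for EIF5A, 0.0652 for EIF4G2 and 0.0767 for EIF4EBP2. All 3 calls were also lost without young control replicate 1 (0.0603, 0.0653, 0.0766) or 2 (0.0599, 0.0649, 0.0767), senescent control replicate 1 (0.0548, 0.109, 0.0552) or 2 (0.0801, 0.0664, 0.0737), or senescent heat shock replicate 2 (0.066, 0.0831, 0.0848), giving EIF5A, EIF4G2 and EIF4EBP2 in that order. Without senescent heat shock replicate 1, 7 members passed beside 16.7% of all genes, adding EIF4G3, EIF3I, EIF2B2 and EIF6. Over all leave-out fits the log2 fold changes ran between 0.91 and 1.19 for EIF5A, 0.77 and 1.24 for EIF4G2, and -2.45 and -1.57 for EIF4EBP2.

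**Figure D3:**
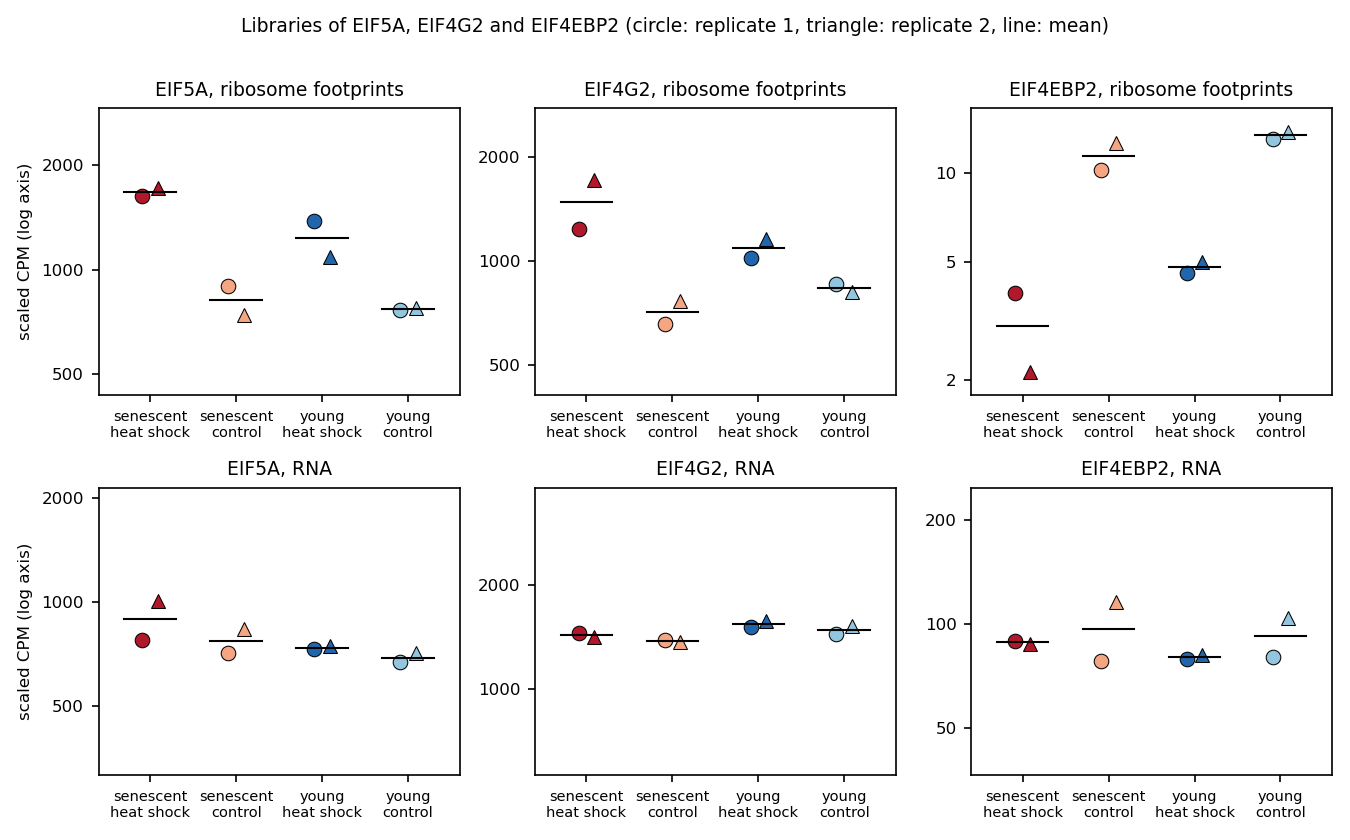
Footprints (top row) and RNA (bottom row) of EIF5A, EIF4G2 and EIF4EBP2 in each library, in scaled CPM on log axes, with the group mean as a line. Footprints of EIF5A and EIF4G2 lie higher in both heat-shocked groups than in their controls and those of EIF4EBP2 lower, while the RNA values lie close together.

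By role, the members of eIF2 and eIF2B had a median footprint change under heat of 0.43 (log2) in senescent and 0.27 in young cells, with 8 and 7 of 8 above 0 and 0 called at either passage. The eIF2 subunits EIF2S1, EIF2S2 and EIF2S3 stood at 0.47, 0.30 and 0.01 in senescent cells and 0.20, 0.29 and 0.37 in young cells. The subunits of eIF2B spanned 0.19 (EIF2B1) to 0.86 (EIF2B2) in senescent cells and -0.07 (EIF2B1) to 0.30 (EIF2B5) in young cells. EIF2B2, a regulatory subunit, had 36.7 and 56.9 scaled CPM in senescent heat shock, against 21.9 and 29.4 in senescent control (edgeR adjusted p = 0.0783), a separation without overlap that did not pass. EIF2A, which despite its symbol is no subunit of eIF2, stood at 0.16 in senescent and -0.20 in young cells.

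The 13 subunits of eIF3, which binds the small subunit, had a median footprint change of 0.38 in senescent and 0.14 in young cells. Above 0 were 10 of 13 in senescent and 13 of 13 in young cells, with 0 called. In senescent cells they ran from -0.24 (EIF3F) to 0.69 (EIF3I). EIF3I and EIF3M missed the threshold in senescent cells, with log2 fold changes of 0.69 ± 0.18 (edgeR adjusted p = 0.0518) and 0.60 ± 0.17 (adjusted p = 0.0604), and DESeq2 called both (0.0188 and 0.0334). EIF3I also passed with no filter on low counts (edgeR adjusted p = 0.0493). In young cells EIF3I stood at 0.58 ± 0.18 and EIF3M at 0.08 ± 0.17. EIF3D, which can itself bind the cap of some mRNAs, stood at 0.56 in senescent and 0.50 in young cells.

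The eIF4 group with the 4E-BPs had a median footprint change of 0.34 in senescent and 0.26 in young cells, with 8 and 10 of 11 above 0. The scaffolds differed among themselves. EIF4G1, the main scaffold, had 608 and 511 scaled CPM in senescent heat shock, against 461 and 421 in senescent control, and 588 and 503 in young heat shock, against 320 and 319 in young control. Its log2 fold change was 0.34 ± 0.18 in senescent and 0.77 ± 0.18 in young cells (edgeR adjusted p = 0.0807 in young; DESeq2 adjusted p = 0.0115). EIF4G3, its paralog, had 109 and 63.5 in senescent heat shock, against 133 and 125 in senescent control, and 131 and 126 in young heat shock, against 99.7 and 87.3 in young control. EIF4G3 was thus lower with heat in senescent cells (-0.58 ± 0.26) and higher in young cells (0.46 ± 0.26) without overlap in either, and neither passed (adjusted p = 0.176 and 0.423). The cap-binding EIF4E stood at 0.37 and 0.20 and its helicase partners EIF4A1 and EIF4A2 at 0.40 and 0.35 in senescent cells and 0.26 and 0.60 in young cells. The helicase cofactors EIF4B and EIF4H stood at -0.02 and 0.31 in senescent and 0.26 and 0.32 in young cells.

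EIF5, EIF5B, EIF5A and EIF5A2 had a median footprint change of 0.55 in senescent and 0.67 in young cells, with 3 of 4 above 0 at each passage. EIF5, which activates the GTPase of eIF2 at the start codon, had 189 and 99.4 scaled CPM in senescent heat shock, against 105 and 126 in senescent control. In young cells it had 255 and 209 in heat shock, against 125 and 124 in control, with a log2 fold change of 0.90 ± 0.29 (edgeR adjusted p = 0.193), without overlap. EIF5B, the GTPase that joins the ribosomal subunits, stood at 0.77 ± 0.27 in senescent and 0.66 ± 0.27 in young cells (adjusted p = 0.107 and 0.288). EIF5A2 was the exception, at -0.62 ± 0.29 in senescent and -0.41 ± 0.29 in young cells. Footprints of these 4 genes summed to 2912 and 2733 TPM in senescent heat shock and 2569 and 2107 TPM in young heat shock, against 1885 and 1594 TPM in senescent control and 1651 and 1687 TPM in young control. EIF5A supplied most of each sum. EIF6, which keeps the large subunit from joining too early, stood at 0.67 ± 0.23 and 0.51 ± 0.23 (adjusted p = 0.0948 and 0.312). Of the eIF1 group, EIF1B stood at 0.78 in senescent cells and EIF1 and EIF1AX at 0.16 and -0.10. No test between the role groups was made.

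Among the 34 members with a promoter entry, the 8 that open with the pyrimidine run spread on both sides of 0 in senescent cells. The members without an entry could not be read for the run. In young cells EIF2A lay below 0 and the rest of the 8 above it. None of the 8 was called at either passage. In senescent cells their footprint changes under heat were 0.01 for EIF2S3, 0.16 for EIF2A, 0.56 for EIF3D, -0.24 for EIF3F, 0.38 for EIF3K, 0.60 for EIF3M, 0.35 for EIF4A2 and -0.02 for EIF4B, all in log2 units.

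RNA was tested in the same way over 13177 genes. Heat called 0 of 41 members in senescent cells, beside 0.577% of all genes, and 0 of 41 in young cells, beside 1.14%. That fit leaves out the replicate number. With the number as a block, 1 member passed in senescent cells (6.28% of all genes) and 4 in young cells (8.77%), as named below. DESeq2 also called 0 in both (2.14% of all genes in senescent and 3.38% in young cells), and at an unadjusted p under 0.05 there were 1 member in senescent cells, beside 8.29% of all genes, and 3 in young cells, beside 10.1%. The median log2 fold change of the members was 0.06 in senescent and 0.09 in young cells, against -0.01 and 0.01 over all genes. By role the medians in senescent and young cells were -0.10 and 0.06 for eIF2 with eIF2B, 0.13 and 0.21 for eIF3, 0.06 and 0.06 for eIF4 with the 4E-BPs, and -0.09 and -0.03 for EIF5, EIF5B, EIF5A and EIF5A2. Scaling to library size alone moved the medians of all members to -0.16 and -0.19 and those of all genes to -0.23 and -0.27.

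The member with the most lowered RNA was EIF5A2. It had 13.9 and 8.73 scaled CPM in senescent heat shock, against 25.0 and 17.0 in senescent control, and 11.2 and 11.1 in young heat shock, against 20.8 and 18.0 in young control. The groups did not overlap at either passage, and the log2 fold changes were -0.89 ± 0.30 in senescent cells and -0.79 ± 0.30 in young cells (edgeR adjusted p = 0.416 and 0.385). By size of change in either direction EIF4G3 came next in senescent cells, higher with heat, with 178 and 94.6 scaled CPM in heat shock, against 113 and 85.5 in control, overlapping, at 0.46 ± 0.38 (adjusted p = 0.865). EIF5, also higher with heat, was the other named in young cells, with 451 and 318 in heat shock, against 242 and 205 in control, at 0.78 ± 0.28 (adjusted p = 0.343). Deviations of same-numbered RNA libraries from their group means went together, and with the replicate number as a block EIF5A2 passed in senescent cells (adjusted p = 0.0331), 1 member beside 6.28% of all genes. In young cells 4 members then passed beside 8.77% of all genes, EIF5 (0.00874), EIF1B (0.0326), EIF4A2 (0.0372) and EIF5A2 (0.0403), of which EIF5A2 was lower and the others higher.

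Translational efficiency, the change in footprints minus the change in RNA on the log2 scale, was fitted in 1 model over all 16 libraries and 11166 genes. In senescent cells 1 of 41 members passed, beside 2.43% of all genes, and in young cells 0 of 41, beside 0.0896%. DESeq2 called 2 in senescent cells (5.77% of all genes) and 0 in young cells (0.421%), and at an unadjusted p under 0.05 there were 7 members in senescent cells (16.7% of all genes) and 2 in young cells (4.11%). The member called was EIF4EBP2, whose efficiency fell by 1.75 ± 0.41 (edgeR adjusted p = 0.0367). It rests on the few footprint counts given above, and the log2 fold change of its RNA was -0.13. The call was lost with the young control footprint libraries counted as 1 (adjusted p = 0.0706). It was also lost in 12 of the 16 fits that left out 1 library, all but those without an RNA library of the young control, senescent control RNA replicate 2 or senescent heat shock footprint replicate 1, with an adjusted p of 0.0515 to 0.178 in the 12. With the replicate number as a block, which was shown to pair the RNA libraries only, 5 members passed in senescent cells, beside 10.4% of all genes. They were EIF4EBP2 (edgeR adjusted p = 0.00925, lower), EIF4G2 (0.0116, higher), EIF5B (0.0275, higher), EIF4G3 (0.0287, lower) and EIF5A (0.0334, higher). In young cells EIF4EBP2 stood at -1.29 ± 0.39 (adjusted p = 0.694) and EIF5B at 0.82 ± 0.80.

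The efficiency of EIF4G2 stood at 0.97 ± 0.25 in senescent cells (edgeR adjusted p = 0.0584; DESeq2 0.00347) and that of EIF5A at 0.80 (adjusted p = 0.158). EIF4G3 stood at -1.06 (adjusted p = 0.304), with its footprints lower and its RNA higher in heat-shocked senescent libraries. By role the medians in senescent and young cells were 0.52 and 0.21 for eIF2 with eIF2B, 0.17 and 0.04 for eIF3, 0.24 and 0.15 for eIF4 with the 4E-BPs, and 0.53 and 0.49 for the 4 EIF5 genes. Over all 41 members they were 0.28 and 0.11, against 0.05 and 0.02 over all genes.

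Whether passages differed in their heat response was tested as senescent minus young. Of the members 0 passed in RNA, footprints or efficiency, where 0%, 0% and 0.00896% of all genes passed. DESeq2 called 0 members in each, the blocked RNA fit called 0 beside 0.00759% of all genes, and an unadjusted p under 0.05 was reached by 0, 2 and 0 members, beside 0.903%, 4.91% and 2.28%. The 2 in footprints were EIF4G3, at -1.04 ± 0.36, and EIF4G2, at 0.67 ± 0.29 (edgeR adjusted p = 0.834 each). For EIF5A the difference was 0.35 (adjusted p = 0.836) and for EIF4EBP2 -0.40 (adjusted p = 0.892), so the calls in senescent cells do not show that the passages differ. In RNA the widest differences were those of EIF4A2 and EIF5, both -0.55 and far from the threshold. In efficiency they were those of EIF4G3 (-1.21) and EIF1B (0.81), which did not pass either.

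Senescent and young cells were also compared directly. Without heat 0 of 41 members passed in RNA, footprints and efficiency, beside 0.0379% (0.0304% higher, 0.00759% lower), 0% and 0.00896% of all genes. DESeq2 called 0 in each and the blocked RNA fit 0, beside 3.72% of all genes. An unadjusted p under 0.05 was reached by 0, 1 and 0 members, beside 7.2%, 7.84% and 0.788%. EIF6 RNA was 214 and 232 scaled CPM in senescent control, against 164 and 184 in young control, at 0.36 ± 0.18 (edgeR adjusted p = 0.766). EIF3D RNA was 284 and 256 in senescent control, against 215 and 216 in young control, at 0.33 (adjusted p = 0.850). EIF4G1 footprints were 461 and 421 in senescent control, against 320 and 319 in young control, at 0.46 ± 0.18 (adjusted p = 0.562), and EIF4G3 footprints, also at 0.46, were 133 and 125, against 99.7 and 87.3. None of these 4 pairs of groups overlapped, and the 4 were named for the size of their change. In RNA both senescent controls lay above both young controls for 9 of 41 members, beside 17.8% of all genes. In footprints they did so for 10 of 41, beside 24.8%. In efficiency EIF4G3 stood at 0.72 and EIF2B2 at -0.53.

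Under heat 0 of 41 passed in RNA (0% of all genes), footprints (0.00886%) and efficiency (0%), DESeq2 called 0, and an unadjusted p under 0.05 was reached by 2, 4 and 1 members, beside 11.5%, 13% and 6.56%. EIF5 RNA was 322 and 213 scaled CPM in senescent heat shock, against 451 and 318 in young heat shock, at -0.52 ± 0.28 (edgeR adjusted p = 0.495), overlapping. EIF1B RNA was 25.8 and 23.0, against 34.5 and 35.2, at -0.51 ± 0.20 (adjusted p = 0.403), without overlap. With the replicate number as a block EIF5 (0.0292) and EIF6 (0.0375) passed in RNA, beside 13.7% of all genes. EIF2B3 footprints were 130 and 124 in senescent heat shock, against 81.8 and 82.7 in young heat shock, at 0.63 ± 0.18 (adjusted p = 0.250). EIF5 footprints were 189 and 99.4, against 255 and 209, at -0.68 ± 0.29 (adjusted p = 0.376). Without senescent heat shock footprint replicate 1, EIF5 footprints stood at -1.26 and passed (0.0362), as did those of EIF4G3, beside 4.26% of all genes. In efficiency EIF5B stood at 0.83 ± 0.80 and EIF1B at 0.66, and neither passed.

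Ratios between paralogs and partners were read in each library from TPM, within an assay. EIF5A footprints exceeded those of EIF5A2 by 83.0 and 134 times in senescent heat shock and 87.2 and 78.5 times in young heat shock, against 31.8 in both libraries of senescent control and 41.8 and 36.5 times in young control. EIF4E footprints exceeded those of its repressor EIF4EBP2 by 25.7 and 52.0 times in senescent heat shock and 23.5 and 17.5 times in young heat shock, against 8.78 and 5.91 times in senescent control and 6.49 and 6.29 times in young control. For both ratios every heat-shocked library lay above every control. The RNA ratio of EIF5A to EIF5A2 showed the same order, at 245 and 504 in senescent heat shock and 284 and 289 in young heat shock, against 124 and 213 in senescent control and 141 and 172 in young control. In RNA the ratio of EIF4E to EIF4EBP2 overlapped between groups, at 0.590 and 0.524 in senescent heat shock and 0.879 and 0.711 in young heat shock, against 0.999 and 0.434 in senescent control and 0.941 and 0.545 in young control. The footprint ratio of EIF4G1 to EIF4G3 was 5.92 and 6.96 in senescent heat shock, against 3.73 and 2.59 in senescent control, and 4.35 and 3.32 in young heat shock, against 2.80 and 3.16 in young control. These ratios come from the changes given above and were not tested.

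**Figure D4:**
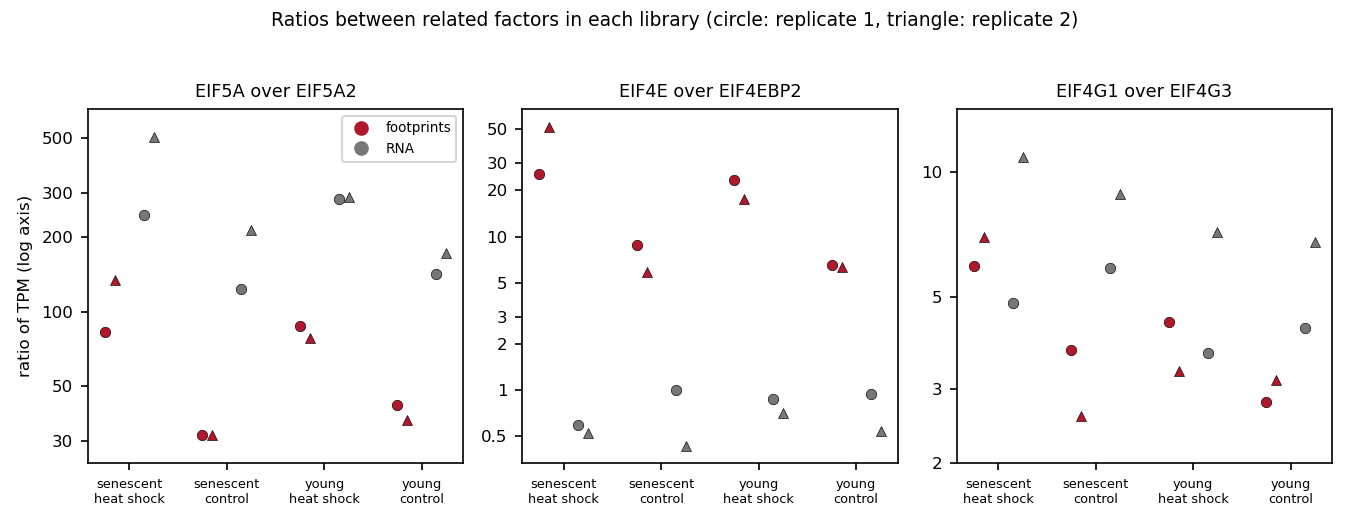
Ratio of TPM between related factors in each library on log axes, footprints in red and RNA in grey. The footprint ratios of EIF5A to EIF5A2 and of EIF4E to EIF4EBP2 are higher in all 4 heat-shocked libraries than in all 4 controls, as is the RNA ratio of EIF5A to EIF5A2. Levels of the 2 assays rest on different lengths, so red and grey are not compared in height.

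Of 31 listed genes that act beside the initiation factors, such as kinases of eIF2, its phosphatase subunits and poly(A)-binding proteins, all 31 were tested in RNA and 28 in footprints and efficiency. In footprints 1 rose and 4 fell with heat in senescent cells, where 3.12% of all genes were called higher and 5.24% lower. In young cells 1 rose and 1 fell, where 0.771% of all genes were called higher and 0.381% lower. PPP1R15A (GADD34), the stress-induced subunit that directs a phosphatase to eIF2, rose. It had 429 and 712 scaled CPM in senescent heat shock, against 36.6 and 31.9 in senescent control, and 272 and 103 in young heat shock, against 26.1 and 26.2 in young control (log2 4.06 ± 0.41 and 2.84 ± 0.41, edgeR adjusted p = 0.00301 and 0.0197). Its RNA rose as well, by 2.62 ± 0.24 in senescent and 2.02 ± 0.24 in young cells (edgeR adjusted p = 0.00427 and 0.0102). It was the 1 listed gene called in RNA at either passage, beside 0.577% of all genes in senescent and 1.14% in young cells. Calls of PPP1R15A in young footprints were lost with the young control libraries as 1 sample (adjusted p = 0.168), without either of them (0.174 and 0.171) or without young heat shock replicate 1 (0.0589). In RNA its call was lost without young control replicate 1 in young cells (0.0997) and without senescent control replicate 1 (0.0913) or 2 (0.0576) in senescent cells.

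PABPC1, the main cytoplasmic poly(A)-binding protein and a partner of EIF4G, fell to 13.8 and 4.67 scaled footprint CPM in senescent heat shock, against 394 and 288 in senescent control, and to 23.3 and 18.7 in young heat shock, against 359 and 340 in young control. The log2 fold changes were -5.16 ± 0.40 and -4.06 ± 0.38 (edgeR adjusted p = 0.000906 and 0.00228). Its RNA was 902 and 630 in senescent heat shock, against 719 and 484 in senescent control, and its efficiency fell by 5.52 in senescent and 4.22 in young cells (adjusted p = 0.00107 and 0.00504). PABPC4, its paralog, had 12.6 and 3.61 footprint CPM in senescent heat shock, against 124 and 81.8 in senescent control (-3.61 ± 0.44, adjusted p = 0.00518). MKNK2, a kinase of EIF4E, had 5.15 and 2.12, against 18.7 and 22.0 (-2.43 ± 0.43, adjusted p = 0.0169). The fifth, EIF2AK4 (GCN2), the eIF2 kinase that senses uncharged tRNA, was named after its values were seen. It had 74.3 and 46.1, against 159 and 127 (-1.25 ± 0.25, adjusted p = 0.0249). The efficiency of PABPC4 and MKNK2 also fell in senescent cells (adjusted p = 0.00329 and 0.0174). The footprint call of EIF2AK4 was lost with the young control libraries as 1 sample (0.0675), without young control replicate 1 (0.0678) or 2 (0.0675), senescent control replicate 1 (0.109) or 2 (0.0574), or senescent heat shock replicate 2 (0.0754). That of MKNK2 was lost without senescent control replicate 1 (0.0511) or 2 (0.0607) or senescent heat shock replicate 2 (0.0594). Its efficiency call was lost without RNA senescent control replicate 1 (0.1), RNA senescent heat shock replicate 2 (0.0528) or footprint senescent heat shock replicate 2 (0.0958), and that of PABPC1 in young cells without footprint young heat shock replicate 2 (0.0646). The list as a whole had a median footprint change of -0.24 in senescent and -0.15 in young cells, and 9 elongation and release factors had -0.51 and -0.09 with 0 called, where the initiation factors stood at 0.35 and 0.26.

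For some members the libraries of a group stood apart, which limits what can be read from them. EIF5B RNA was 132 and 55.3 scaled CPM in senescent heat shock, 175 and 67.0 in young heat shock, 181 and 63.2 in senescent control and 190 and 80.8 in young control, so that replicate 1 exceeded replicate 2 by 2.35 to 2.87 times in every group. EIF4EBP1 footprints were 9.89 and 28.4 in senescent heat shock, 5.62 and 28.1 in young heat shock, 9.16 and 22.3 in senescent control and 17.5 and 16.2 in young control, and the direction of its heat response changes with the library left out. Replicate 1 exceeded replicate 2 in all 4 groups for 15 members in RNA and 6 in footprints, and the reverse held for 9 and 4. The same count was not made over all genes. Across genes, deviations of same-numbered libraries correlated at 0.481 to 0.658 in RNA and -0.0380 to 0.329 in footprints. The counts are not read as a trait of the members.

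**Figure D5:**
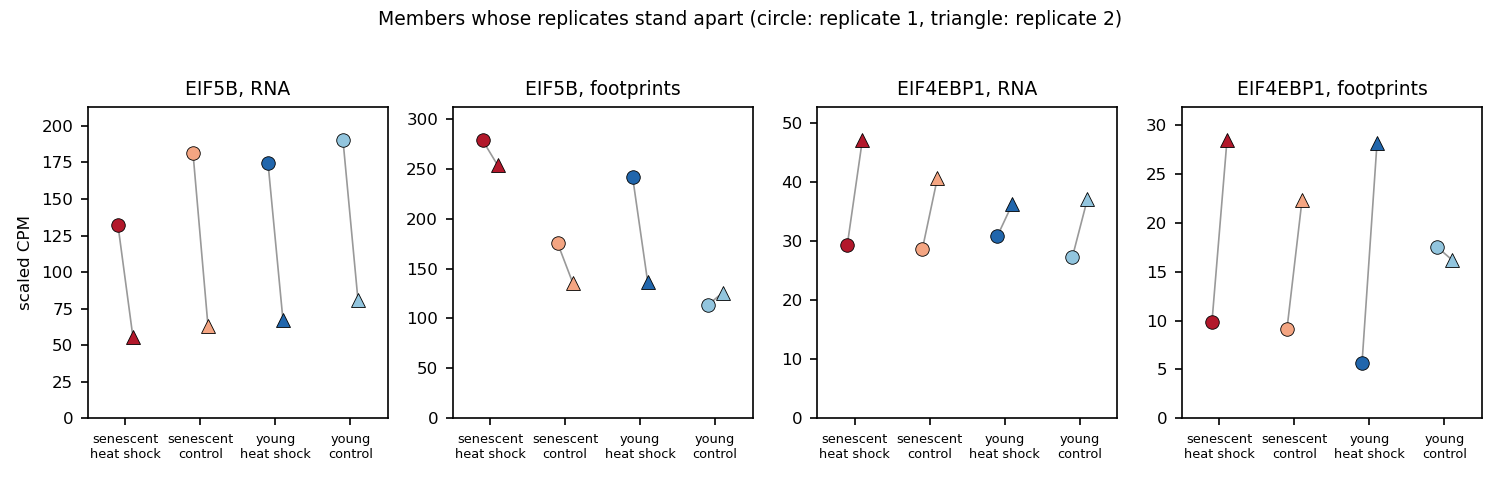
EIF5B and EIF4EBP1 in each library, in scaled CPM from 0, with lines joining the 2 libraries of a group. EIF5B RNA is higher in replicate 1 of every group and EIF4EBP1 footprints are higher in replicate 2 of every group but the young control.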

How the data were processed

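RNA-seq and ribosome footprint libraries of WI-38 cells were each given as 1 table of expected counts and 1 of TPM per gene, which the authors deposited. STAR, Bowtie2 and RSEM and the genome build hg19 are named in the submitters' processing notes. Their versions, and which of them served which assay, are not given in any source used. The deposited expected counts were already whole numbers, and no column of values was left unused (0). The deposited TPM values, scaled by the authors to a sum per library, were used for levels and ratios only.

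Counts were tested with edgeR 4.0.16 (limma 3.58.1, R 4.3.3): filterByExpr, TMM scaling, 1 mean for each group, the quasi-likelihood test and Benjamini-Hochberg adjustment over all genes, with a threshold of 0.05. Each assay was fitted over its 8 libraries, and efficiency over all 16. Standard errors come from the fitted weights and the moderated dispersion. The scripts were tested on simulated data. Alternatives were DESeq2 1.42.0, other scalings, no filter, a block for the replicate number, leaving out each library, and the young control footprint libraries as 1 sample, the last chosen from the duplicate check.

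Replicate numbers come from the labels, which do not say what they mark. Deviations of same-numbered libraries from their group means correlated across genes at 0.481 to 0.658 in RNA, in all 6 pairs of groups. In footprints they correlated at -0.0380 to 0.329. The numbers were thus taken to pair the RNA libraries and not the footprint libraries. The main fits, those of RNA included, left this pairing out, and the block was run as an alternative.

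Members called in a comparison were named with all values; where none was, the 2 with the largest absolute change and a mean of at least 10 CPM were. Other members given with values were chosen after these were seen. The members and lists were chosen with earlier results of these data known. Sequences are from RefSeq (GRCh38.p14) and GENCODE v29 (GRCh38) and were not placed on hg19.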

Additional observations from a re-analysis of the deposited data

How the results depend on the processing

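With the replicate number as a block, the members called in RNA were 4 for heat in young cells, 1 for heat in senescent cells and 2 for senescent against young cells under heat, in place of 0 each. In footprints, where the block rests on a shared number only, they were 1 for heat in young and 7 for heat in senescent cells, and in efficiency 5 (10.4% of all genes) for heat in senescent cells, and the block left the count at 0 in every other comparison. DESeq2 called 2 members for heat in young footprints (4% of all genes), 5 in senescent footprints (13.2%) and 2 in senescent efficiency (5.77%). With the young control footprint libraries as 1 sample, 0 members were called in senescent footprints (2.13% of all genes) and 0 in senescent efficiency (1.28%). Leaving out 1 library at a time moved the members called for heat in senescent footprints and in senescent efficiency. It also moved those called for senescent against young footprints under heat. In the other 12 comparisons the count stayed at 0. Directions reversed for small changes under heat: scaling to library size alone gave -0.19 in young and -0.025 in senescent cells for EIF5A RNA, -0.23 and -0.16 for EIF4G2 RNA, and -0.23 and -0.051 for EIF4EBP1 footprints, for which the block gave -0.38 in young cells. With single libraries left out, EIF4EBP1 footprints ran between -1.61 and 0.74 in young and -0.71 and 1.05 in senescent cells, EIF4EBP2 RNA between -0.37 and 0.001 in young and -0.39 and 0.18 in senescent cells, and, in senescent cells, EIF4G3 RNA between -0.076 and 0.83, EIF5A RNA between -0.002 and 0.38 and EIF5 footprints between -0.25 and 0.68. EIF5B efficiency between passages under heat ran between -0.023 and 1.57. The cause of each of these was not tested. Fewer footprint than RNA counts limit members such as EIF4EBP2, whose footprints were 10 to 142 per library.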
